A study of Rattus norvegicus with 15 samples.

Results

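The genes described here are those of the mitochondrial respiratory chain and ATP synthase, 56 of the 4736 genes that the rat array names by a single symbol. They were chosen by symbol, as the Ndufa, Ndufb, Ndufc, Ndufs, Ndufv, Sdh, Uqcr, Cox4 to Cox8 and Atp5 genes with Cyc1 and Cycs, and Cycs had no probe set with a single symbol. Complex I gave 27 genes, complex II 2, complex III 4, complex IV 13 and complex V 10. Neurons had been cut by laser capture microdissection from the rat substantia nigra pars compacta (SNc, 8 arrays) and from the neighbouring ventral tegmental area (VTA, 7 arrays, numbered 1 to 6 and 8). The study's title names Parkinson's disease, in which dopamine neurons of the SNc die, and its design sets these neurons against those of the VTA. The labels give no strain, age or sex, no number of animals, and no sign by which neurons were recognised. The p-values therefore rest on the spread among these arrays, part of which may be technical. Th, tyrosine hydroxylase, the defining enzyme of dopamine neurons, was bright in both regions, at 6615 ± 527 for SNc and 7193 ± 769.7 for VTA (mean ± SD of the signal).

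Oxidative phosphorylation makes most of a neuron's ATP. Complexes I and II pass electrons from NADH and succinate to ubiquinone, complex III passes them on to cytochrome c, and complex IV passes them to oxygen. Complexes I, III and IV pump protons, and complex V, the ATP synthase, uses the returning protons to make ATP. Dopamine neurons of the SNc fire as pacemakers and carry very long, branched axons, and inhibitors of complex I are used to model parkinsonism in rodents. The genes listed here are nuclear. The subunits encoded by mitochondrial DNA, whose symbols start with Mt-, were not analysed here.

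Nuclear genes of the respiratory chain are known targets of the transcription factors NRF-1 and YY1, so their start regions were searched for these factors' letters. RefSeq (assembly GRCr8) gave the window from 250 bases before to 50 bases after the annotated start for 47 of the 56 genes. The core of the NRF-1 site, TGCGCA, which reads the same on both strands, was present in 11 of the 47 windows (23.4%), against 7.24% of all 33469 windows in the table and 10.1% of the 4192 windows of genes on the array. The YY1 letters AAGATGGC, on either strand, were also present in 11 (23.4%), against 3.17% and 3.89%. An ETS site of the kind bound by GABP, CCGGAAGT on either strand, was in 4 (8.51%, against 3.81% and 4.96%). The Sp1 box GGGCGG, on either strand, was in 21 (44.7%, against 33.1% and 55.7%). In all, 19 windows held the NRF-1 core or the YY1 letters, and 3 held both. The 14 NRF-1 matches all began before the start. Of the 11 YY1 matches, 10 lay on the gene's own strand and 10 had their first base within 25 bases of the start. The 250 bases before the start are printed for 4 genes. Ndufa5, Ndufb8 and Sdha are the 3 genes with 2 NRF-1 cores in the window, and Cox7b, whose values are given with complex IV, held none of the letters searched. Capitals mark the NRF-1 core. The second core of Sdha crosses the start and is not in the stretch printed, nor is the YY1 match of Ndufb8, which begins after the start.
Ndufa5, GRCr8 chr4:53971236-53971485, minus strand: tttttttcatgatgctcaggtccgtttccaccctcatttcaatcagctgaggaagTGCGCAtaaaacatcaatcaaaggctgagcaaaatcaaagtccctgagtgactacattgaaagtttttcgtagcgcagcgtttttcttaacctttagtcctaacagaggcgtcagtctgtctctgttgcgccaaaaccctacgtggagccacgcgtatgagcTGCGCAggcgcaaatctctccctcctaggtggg
Ndufb8, GRCr8 chr1:253362937-253363186, minus strand: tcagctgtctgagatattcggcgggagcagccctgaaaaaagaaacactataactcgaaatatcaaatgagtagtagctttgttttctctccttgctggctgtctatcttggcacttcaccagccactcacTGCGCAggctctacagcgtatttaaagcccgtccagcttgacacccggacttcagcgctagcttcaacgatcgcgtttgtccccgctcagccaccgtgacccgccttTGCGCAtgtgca
Sdha, GRCr8 chr1:30764303-30764552, plus strand: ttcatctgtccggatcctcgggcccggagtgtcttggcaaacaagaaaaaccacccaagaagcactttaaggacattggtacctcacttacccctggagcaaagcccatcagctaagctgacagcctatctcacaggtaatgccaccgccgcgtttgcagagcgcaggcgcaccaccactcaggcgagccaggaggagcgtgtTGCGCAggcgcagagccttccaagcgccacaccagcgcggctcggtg
Cox7b, GRCr8 chrX:75148786-75149035, plus strand: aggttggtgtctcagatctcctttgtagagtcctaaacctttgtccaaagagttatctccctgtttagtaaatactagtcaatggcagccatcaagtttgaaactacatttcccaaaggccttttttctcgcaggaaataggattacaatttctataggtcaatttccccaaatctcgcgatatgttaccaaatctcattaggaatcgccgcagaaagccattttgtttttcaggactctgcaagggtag
A match shows only that these letters stand in the window.

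The signals are array intensities on a linear scale, and the difference between regions is SNc minus VTA on the log2(signal + 16) scale, given with its standard error (SE) and tested with limma. Each gene was read by its brightest probe set, a set of short oligonucleotides designed for that transcript. Levels of different genes cannot be set against each other, since each probe set has its own brightness. Signals were scaled to a 2% trimmed mean of 150.2 on every array. The median signal of an array averaged 41.4 ± 3.04 for SNc and 45.1 ± 1.73 for VTA (exact permutation test, two-sided, p = 0.0160, and 0.0480 after Benjamini-Hochberg adjustment over 3 array measures). The 3′ to 5′ ratio of the actin control, which rises as RNA shortens, was 9.94 ± 2.84 in SNc and 8.43 ± 0.816 in VTA (p = 0.211, adjusted 0.316, same permutation test). That of the GAPDH control was 4.33 ± 0.646 and 4.64 ± 1.27 (p = 0.569, adjusted 0.569, same permutation test). VTA 5 and VTA 8 correlated least with the rest, and without both of them 41 of 54 genes had a positive difference, against 42 with them.

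Of the 56 genes, 54 passed the filter on low signal and were tested. Ndufs1, the largest iron-sulfur subunit of complex I, was dim at 12.1 ± 8.45 in SNc and 14.96 ± 10.8 in VTA. Cox6c-ps1, a pseudogene of a complex IV subunit, was at 20.8 ± 15.7 and 35.5 ± 8.34, and neither was tested. After adjustment over all 5244 probe sets, 0 of the 54 genes differed between SNc and VTA at 0.05 in limma, where 2.17% of the 3221 genes tested did. An unadjusted p under 0.05 was reached by 7 of the 54 (12.96%), against 15.5% of all genes. This count was 3 without VTA 3 and 3 with quantile normalization, and it was 10 with an offset of 64. It was also 10 with no filter, where all 56 genes were tested. Of these 7, 6 had a positive difference and 1 a negative one, where 6.46% and 9.03% of all genes reached that p in those directions. The counts among genes of like signal are given with the bins of signal below. In 0 of the 54 genes did the SNc and VTA arrays separate without overlap, against 0.838% of all genes.

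Small positive differences were common among the genes. The difference was positive in 42 of 54 (77.8%) and negative in 12, where 44.4% of all genes tested were positive. The median difference was 0.13 for the 54 genes and -0.04 for all genes. Single differences ran from -0.41 for Ndufa4l2 to 0.46 for Atp5pf, with SEs of 0.115 to 0.249. The 95% confidence interval lay within a 2-fold change either way for 54 of the 54 genes and within a 1.5-fold change for 43. For all 3221 genes tested these counts were 2959 and 1632. These shares depended on how arrays were scaled. With each array centred on its median, 58.9% of all genes were positive, and with arrays centred on the brightest genes, 33.3% were. In those settings 47 and 36 of the 54 genes were positive, with a median difference of 0.225 and 0.0591.

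**Figure D1:**
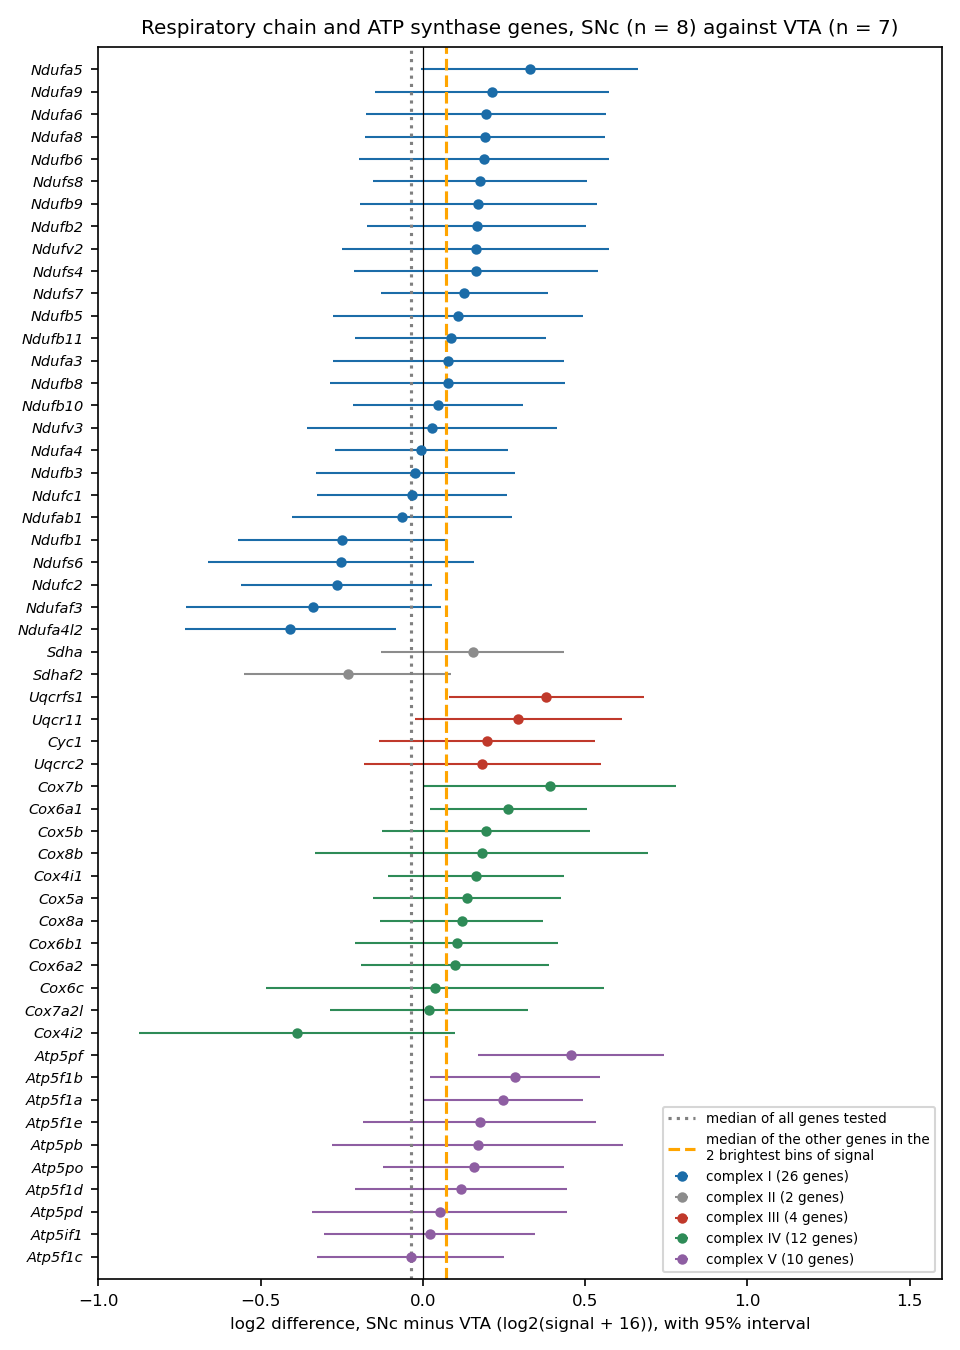
Log2 difference, SNc minus VTA (x axis), for each of the 54 genes tested (rows), coloured by complex, with points for limma's estimate and lines for its 95% interval. The dotted line is the median of all genes tested and the dashed line that of the other genes in the 2 brightest of 10 bins of signal. Most points lie to the right of 0, from -0.41 for Ndufa4l2 to 0.46 for Atp5pf, and most intervals cross 0.

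Most of these genes were bright, and bright genes on this array leaned to positive differences. When all genes tested were ranked by mean signal and divided into 10 bins of equal size, 31 of the 54 genes fell in the brightest bin and 13 in the next. Among the other 600 genes of these 2 bins (signal of 411.6 and above), 61.7% were positive, with a median of 0.07. Of the 44 respiratory chain genes there, 37 (84.1%) were positive, with a median of 0.16. An unadjusted limma p under 0.05 was reached by 6 of these 44 (13.6%) and by 120 of the other 600 (20%). It came with a positive difference in all 6 and in 80 of the 120, so the count of 6 does not stand out among bright genes. In the brightest bin alone the median was 0.17 for the 31 genes and 0.10 for all genes, and in the next it was 0.12 for the 13 genes and 0.06 for all genes. Of the 10 respiratory chain genes below that signal, 5 were positive, and their median was -0.10. Signal therefore moved together with the direction, and its part in the result was not tested beyond these bins.

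**Figure D2:**
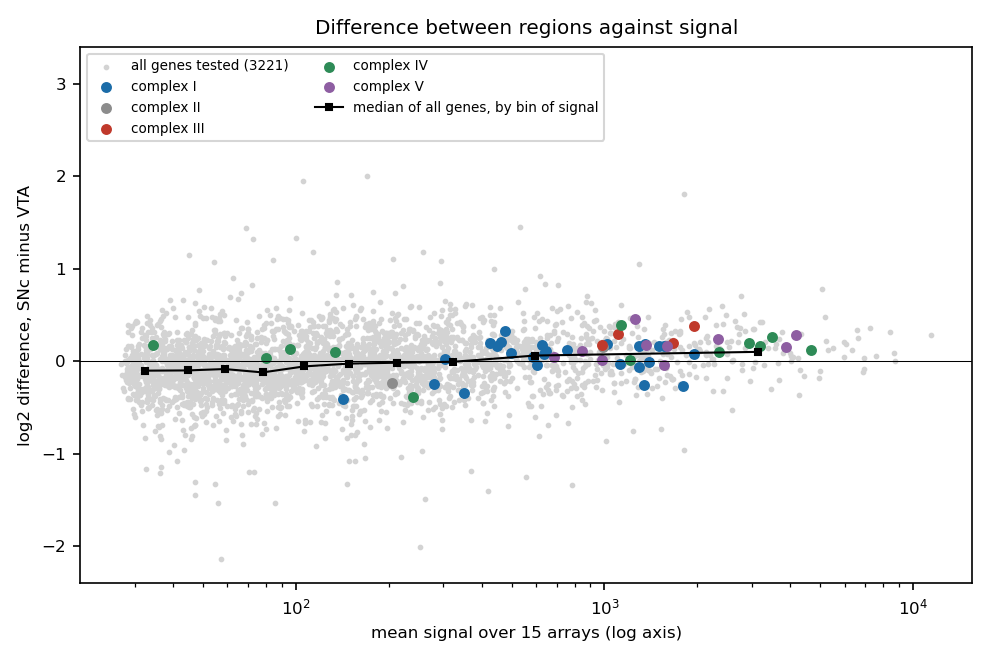
Log2 difference, SNc minus VTA (y axis), against mean signal over the 15 arrays (x axis, log scale), with all 3221 genes tested in grey and the respiratory chain genes coloured by complex. The black line joins the median difference of all genes in each bin of signal and climbs from -0.10 in the dimmest bin to 0.10 in the brightest, where 31 of the 54 genes lie.

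Complex I, the NADH dehydrogenase, held genes of both signs. Of 26 genes tested, 17 were positive and 9 negative, with a median of 0.08, and 0 passed. Without an assembly factor and a paralogue, a choice made after seeing the data, 17 of 24 subunits (70.8%) were positive and 7 negative, with a median of 0.10. The 3 core subunits tested, which carry iron-sulfur clusters, were Ndufs7, Ndufs8 and Ndufv2. Their differences were 0.13 (SE 0.12), 0.18 (SE 0.16) and 0.16 (SE 0.20). Of the 21 supernumerary subunits, which surround the catalytic core, 14 were positive and 7 negative, from -0.27 for Ndufc2 to 0.33 for Ndufa5. Ndufa5, a subunit of the arm that reaches into the matrix, had a signal of 388 at its lowest, 515 at the median and 698 at its highest in SNc, and of 303, 387 and 555 in VTA. Its difference of 0.33 (SE 0.16) had an adjusted p of 0.331. The ranges overlapped, with 2 SNc arrays above the highest VTA array and 4 VTA arrays below the lowest SNc array. Ndufc2, a membrane-arm subunit, ran from 1321 through 1667 to 1915 in SNc and from 1669.8 through 1831 to 2872 in VTA (difference -0.27, SE 0.14, adjusted p = 0.369).

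Ndufa4l2 had the most negative difference of the 54 genes. It encodes a relative of Ndufa4 that is known to be induced under low oxygen. Its signal was 90.1 at the lowest, 113 at the median and 203 at the highest in SNc, and 127, 170.2 and 199 in VTA. SNc 7 held the high value, and 6 of the other 7 SNc arrays lay below the lowest VTA array. The difference was -0.41 (SE 0.16, 95% interval -0.73 to -0.08, adjusted p = 0.203). A second, dimmer probe set that was tested gave -0.11 (SE 0.30, adjusted p = 0.900). The probe sets for Ndufa4l2 are of the type that matches a family of similar sequences, so the gene behind the signal is uncertain. Ndufa4, grouped here by its name but now known as a subunit associated with complex IV, ran from 1224 through 1376 to 1577 in SNc and from 1117 through 1404 to 1705 in VTA. Its difference was -0.005 (SE 0.13, 95% interval -0.27 to 0.26, adjusted p = 0.992). It turned to 0.0878 with each array centred on its median, so it has no settled sign.

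The remaining complex I genes named here were Ndufaf3 and Ndufb8, whose probe sets disagree. Ndufaf3, an assembly factor of complex I, had a lowest, median and highest signal of 193, 304 and 452 in SNc and 249, 422 and 459 in VTA, with a difference of -0.34 (SE 0.19, adjusted p = 0.400). Ndufb8, a membrane-arm subunit, had 1553, 1863 and 2790.4 in SNc and 1344, 1797 and 3081 in VTA, with a difference of 0.08 (SE 0.17, adjusted p = 0.876). The highest VTA value of Ndufb8 came from VTA 5.

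Complex II was read by 2 genes, which had opposite signs. Sdha, the flavoprotein that oxidises succinate and also a member of the citric acid cycle, ran through 725, 1084 and 1213 in SNc (lowest, median and highest signal) and through 730.1, 942 and 1061 in VTA. Its difference was 0.15 (SE 0.13, adjusted p = 0.622), and 5 SNc arrays were above the highest VTA array. Sdhaf2, the factor that attaches the flavin to Sdha, had 155, 186 and 217 in SNc and 168, 199 and 350.3 in VTA (difference -0.23, SE 0.15, adjusted p = 0.498). Without VTA 4 the difference of Sdhaf2 was -0.125, and it was -0.139 with each array centred on its median.

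All 4 genes of complex III had positive differences, with a median of 0.25. Uqcrfs1, the Rieske iron-sulfur protein that takes electrons from ubiquinol, had a signal of 1539.7 at the lowest, 2281 at the median and 2570.3 at the highest in SNc, and of 1365, 1623 and 2059 in VTA. Of the 8 SNc arrays, 6 lay above the highest VTA array, and 2 VTA arrays lay below the lowest SNc array. The difference was 0.38 (SE 0.14, 95% interval 0.08 to 0.68), or 1.30-fold, with an adjusted p of 0.198. Uqcr11, a small subunit, had 1033, 1171 and 1503 in SNc and 714, 965 and 1379 in VTA (difference 0.29, SE 0.15, adjusted p = 0.363). Cyc1, cytochrome c1, had 1089, 1869.6 and 2143 in SNc and 1173, 1504 and 2065 in VTA (difference 0.20, SE 0.16, adjusted p = 0.589). Uqcrc2, one of the large core proteins, differed by 0.18 (SE 0.17, adjusted p = 0.656).

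The position of complex III on each array was the median deviation of its 4 genes from the mid-point of both regions. It lay between 0.075 and 0.258 on the SNc arrays and between -0.202 and 0.0003 on the VTA arrays, so all 8 SNc arrays were above the highest VTA array, which was VTA 5. This is a description of 4 genes already seen to be positive on these same arrays, and 0 of them separated the arrays singly. With region means removed, their median Pearson correlation was -0.241, and genes that move oppositely can give a median of narrow spread. How often other sets of 4 genes separate the arrays was not tested. Over the 54 genes together, 5 SNc arrays lay above the highest VTA array. VTA 4 was the lowest array at -0.208, and SNc 3 was the highest at 0.159. VTA 4 was also lowest in complexes I, IV and V. The other 600 bright genes likewise had 5 SNc arrays above the highest VTA array, over a narrower range of -0.068 to 0.088.

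**Figure D3:**
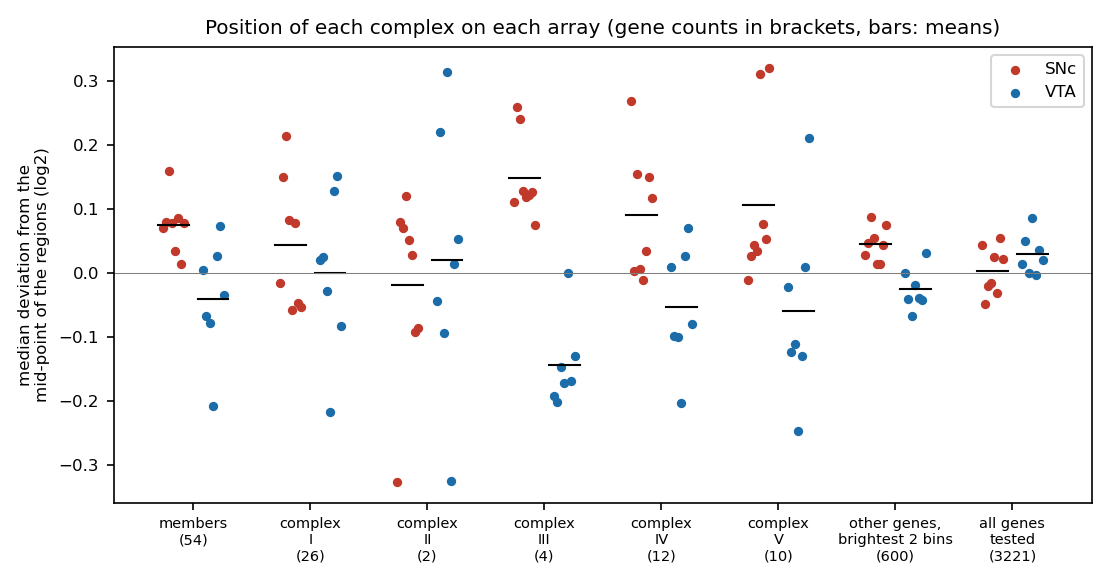
Median deviation of each set of genes from the mid-point of the region means (y axis, log2), 1 point per array, with red for SNc, blue for VTA, bars for means and the number of genes in brackets. Complex III shows the 8 SNc arrays above the 7 VTA arrays, while the arrays overlap in every other set drawn.

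Complex IV, cytochrome c oxidase, had 11 of 12 genes positive, with a median of 0.13, and 0 passed. They encode subunits outside the catalytic core, which is built by mitochondrial genes, and Cox7a2l, a relative of subunit VIIa that is tied to supercomplexes. Cox6a1, the widely expressed form of subunit VIa, ran through 3280.3, 3762 and 4503 in SNc (lowest, median and highest signal) and through 2662, 3214 and 3506 in VTA. Of the 8 SNc arrays, 7 lay above the highest VTA array, with SNc 2 as the exception. The difference was 0.26 (SE 0.11, 95% interval 0.02 to 0.50, adjusted p = 0.264). Cox7b, a small subunit needed for assembly, had 980.3, 1265 and 1649 in SNc and 532, 1013 and 1477 in VTA. Its difference was 0.39 (SE 0.19, adjusted p = 0.317), and the VTA values were spread widely, with VTA 8 lowest and VTA 6 highest. Without VTA 8 the difference of Cox7b was 0.255. Cox8a, the brightest probe set of this complex, differed by 0.12 (SE 0.12, adjusted p = 0.681).

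Some subunits of complex IV come as tissue forms, and these pairs were compared within themselves by difference only. Cox4i1, the common form of subunit IV, differed by 0.16 (SE 0.13, adjusted p = 0.578) in its brightest probe set. Its other 2 probe sets gave -0.10 and -0.23, and the mean of all 3 was -0.0562, so Cox4i1 has no settled sign. Cox4i2, the form known from lung and low oxygen, ran through 65.7, 247 and 298 in SNc (lowest, median and highest signal) and through 239, 262 and 336 in VTA (difference -0.39, SE 0.23, adjusted p = 0.449). Its SNc values were uneven, with SNc 5 and SNc 8 lowest, and without SNc 5 the difference was -0.189. Cox6a2, the form of heart and skeletal muscle, had 96.9, 141 and 184 in SNc and 103, 125 and 154 in VTA by its brightest probe set (difference 0.10, SE 0.14, adjusted p = 0.777). Cox8b, also known from muscle, was dim at 15.6, 37.0 and 62.2 in SNc and 8.55, 26.9 and 54.0 in VTA (difference 0.18, SE 0.25, adjusted p = 0.773). The difference between the members of a pair was not tested.

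Complex V, the ATP synthase, had 9 of 10 genes positive, with a median of 0.16, and held the gene with the smallest p of the 54. Atp5pf, coupling factor 6 of the stalk that joins the F1 head to the membrane part, had a signal of 1089 at the lowest, 1436 at the median and 1783 at the highest in SNc, and of 875, 1055 and 1197 in VTA. Of the 8 SNc arrays, 6 lay above the highest VTA array, and SNc 4 and SNc 8 lay within the VTA range. The difference was 0.46 (SE 0.14, 95% interval 0.17 to 0.74), or 1.37-fold, and its adjusted p of 0.0957 missed the threshold. It passed with arrays centred on their medians (0.55, adjusted p = 0.0391) and with an offset of 64 in place of 16 (0.44, adjusted p = 0.0443). Over all alternatives the adjusted p of Atp5pf ran from 0.0391 to 0.186.

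The F1 head of complex V holds the catalytic sites. Of its 5 subunits measured, 4 were positive. Atp5f1b, the catalytic beta subunit, ran through 3934, 4502 and 5195 in SNc (lowest, median and highest signal) and through 3153, 3607 and 4915 in VTA (difference 0.28, SE 0.13, adjusted p = 0.272). Atp5f1a, the alpha subunit, had 2214, 2433 and 2844 in SNc and 1884, 2068 and 2602 in VTA (difference 0.25, SE 0.12, adjusted p = 0.316). In both genes VTA 8 was the highest VTA array and lay within the SNc range, and every other VTA array of Atp5f1a lay below the lowest SNc array. Atp5f1c, the rotor shaft, was the negative one at -0.04 (SE 0.14). All 4 stalk or membrane subunits were positive by their brightest probe sets, from 0.05 for Atp5pd to 0.46 for Atp5pf. One of them, Atp5po, gave 0.16 (SE 0.13) by that probe set. Its other probe set gave -0.30 (SE 0.14, adjusted p = 0.329), so Atp5po has no settled sign. Atp5if1, the inhibitor that binds the F1 head, differed by 0.02 (SE 0.16) in its brightest probe set, and its other 2 tested gave 0.21 and -0.25. All 3 are of the type that matches a family of similar sequences, so the gene behind the signal and its sign are uncertain.

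**Figure D4:**
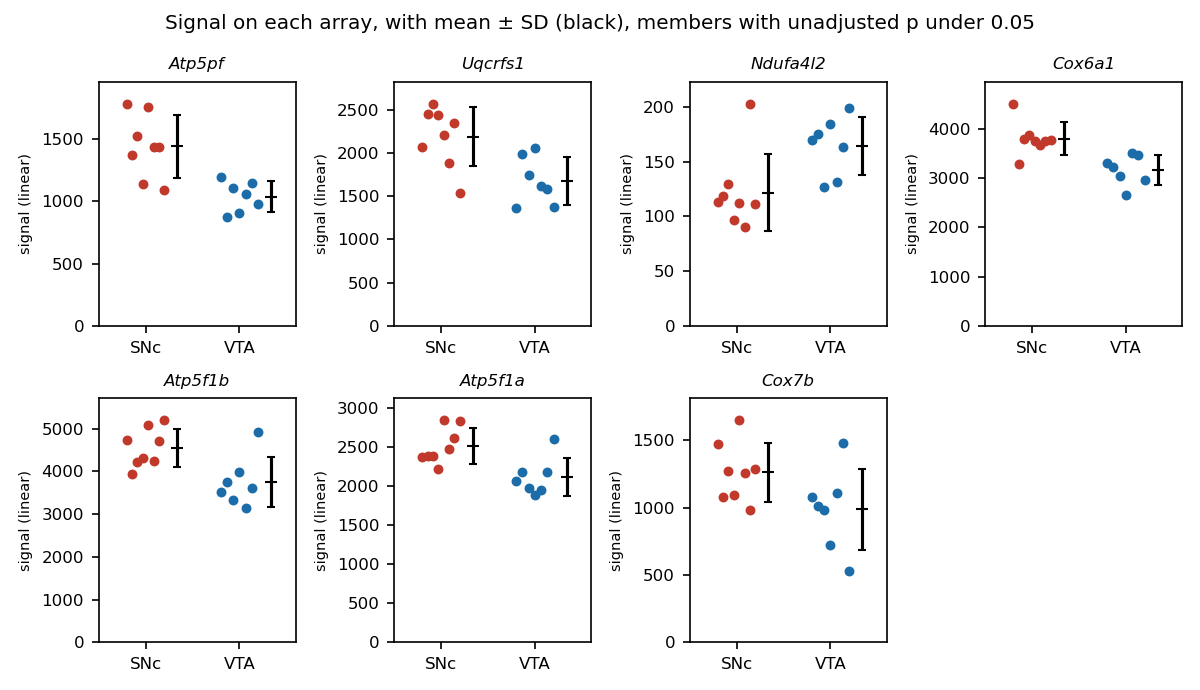
Linear signal on each array (y axis, from 0) in SNc (red, 8 arrays) and VTA (blue, 7 arrays) for the 7 genes with an unadjusted p under 0.05, with black bars for mean ± SD. The arrays of the regions overlap in every gene, including Atp5pf, at 1089 to 1783 in SNc against 875 to 1197 in VTA.

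Several genes were read by more than 1 probe set, which gives a second reading of the same arrays and not a replicate. Of 102 probe sets for the 56 genes, 88 were tested, and 24 genes had more than 1. All tested probe sets had the same sign in 13 of these genes and mixed signs in 11. Both probe sets of Atp5pf were positive (0.46 and 0.41), as were the 3 of Uqcrfs1 (0.38, 0.29 and 0.39) and both of Uqcr11 (0.29 and 0.48). The 3 of Cox6a1 gave 0.26, 0.01 and -0.06, and those of Cox4i1 gave 0.16, -0.10 and -0.23.

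The probe sets differed by more than 0.5 in 3 genes. For Cox6a2 the dimmer probe set ran through 49.0, 98.5 and 117 in SNc (lowest, median and highest signal) and through 19.6, 41.4 and 123 in VTA (difference 0.84, SE 0.25, adjusted p = 0.0922), against 0.10 for the brighter one. For Ndufaf3 the 3 differences were -0.34, -0.44 and 0.18. For Ndufb8 the 4 were 0.08, 0.36, -0.19 and -0.12. Over the 24 genes the brightest probe set was positive in 20, with a median of 0.14, and the 34 dimmer ones were positive in 18 and negative in 16, with a median of 0.01. Of the 12 dimmer probe sets with a signal of at least 411.6, 9 were positive (median 0.16), and of the 22 below it, 9 were positive (median -0.05).

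**Figure D5:**
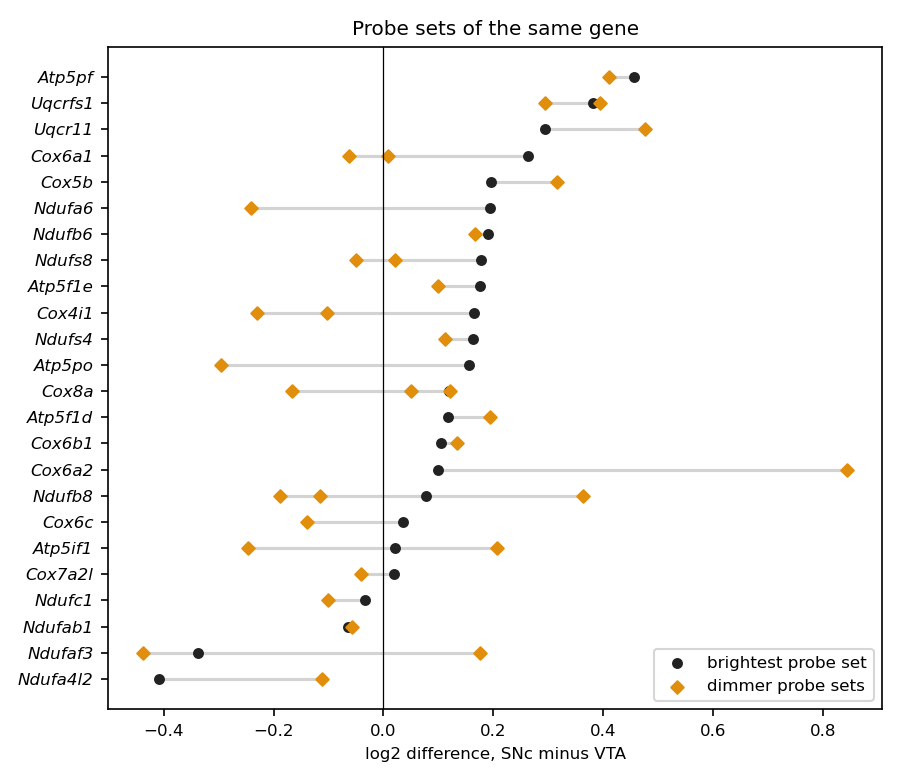
Log2 difference, SNc minus VTA (x axis), of every tested probe set of the 24 genes that have more than 1, with black circles for the brightest probe set and orange diamonds for the dimmer ones. Readings of Atp5pf and Uqcrfs1 lie close together, while those of Cox6a2 run from 0.10 to 0.84.

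Genes that feed the respiratory chain were taken from lists. Of 28 genes of the citric acid cycle and of pyruvate entry, 18 were on the array and 16 were tested. In limma 0 of the 16 passed in either direction, where 0.993% of all genes passed as higher in SNc and 1.18% as higher in VTA. The difference was positive in 11 and negative in 5, with a median of 0.22, and the 5 genes with an unadjusted p under 0.05 (31.25%) were all positive, where 15.5% of all genes reached that p and 6.46% did so with a positive difference. Of the 7 genes of the list in the 2 brightest bins of signal, 6 were positive, where 61.7% of the 600 bright genes outside the respiratory chain were, and of the 9 below, 5 were. The unadjusted p under 0.05 was reached by 4 of those 7 and by 1 of the 9. Of the 600 bright genes, 120 (20%) reached it, and 80 of these had a positive difference. The share of all genes is therefore a low yardstick for the 7 bright genes of the list. Against the 600 bright genes, 4 of 7 was still the larger share, on few genes and not tested. Pdha1, a subunit of the pyruvate dehydrogenase complex, was at 1054 ± 78.6 in SNc against 775 ± 75.9 in VTA (difference 0.44, SE 0.11, adjusted p = 0.0508). Pdhb, its partner in that enzyme, had 826 ± 165 and 561 ± 103 (difference 0.54, SE 0.15, adjusted p = 0.0787). Both stand just outside the threshold. Dlat and Pdhx, of the same enzyme complex, went the other way. They differed by -0.14 (SE 0.20, adjusted p = 0.777) and -0.19 (SE 0.27, adjusted p = 0.780).

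Other routes and regulators were thinly covered. Of 5 genes of other electron entry tested, 2 were positive and 3 negative, and 0 passed. Suox, sulfite oxidase, differed by 0.16 (SE 0.16) and Gpd2, the mitochondrial glycerol phosphate dehydrogenase, by -0.06 (SE 0.15), with adjusted p of 0.693 and 0.901. Beside Ndufaf3 and Sdhaf2, which were described with their complexes, a list of 24 other assembly factors held 1 with a single symbol on the array, Nubpl, at -0.07 (SE 0.33, adjusted p = 0.944). Of 15 regulators of mitochondrial genes, 3 were on the array and 1 was tested. This was Esrra, a nuclear receptor, at 48.6 ± 21.7 in SNc and 30.0 ± 21.0 in VTA (difference 0.58, SE 0.29, adjusted p = 0.338).

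Markers of other cells that a capture could hold were read beside these values. Of all genes tested, 2.17% passed, so 0 passing in a short list is close to that share. In bulk captures, fewer cells of a type and less RNA per cell cannot be told apart. Of all 3221 genes tested, 1792 had a negative difference. The positive share was 65.8% in the brightest bin of signal and 35.0% in the dimmest, so signs depend on the signal of a list. Most vessel and blood genes were dimmer than the oligodendrocyte genes. Of 7 oligodendrocyte genes tested, 6 were negative and 0 passed, and their summed signal ran from 6184 to 10342 in SNc and from 8436 to 12748 in VTA. Of 8 astrocyte genes tested, 4 were positive, 4 negative and 0 passed, with sums of 6814 to 9342 and 6702 to 10620. Of 9 vessel and blood genes, 8 were negative and 0 passed, with sums of 675 to 1462 and 859 to 2837. Of 7 microglia genes on the array, 5 were too dim to test, and sums were 104 to 196 and 121 to 227. Of 4 GABA neuron genes tested, 2 passed, Gad1 (1.45, adjusted p = 0.00154) and Pvalb (1.34, adjusted p = 0.0282). Gad2 (0.23, adjusted p = 0.723) and Slc32a1 (0.07, adjusted p = 0.901) did not. Their sums were 925 to 1859 in SNc and 560.4 to 1122 in VTA. A sum follows the brightest probe sets of its list, here Gad1 with a mean of 754 in SNc and 279 in VTA. Of 11 dopamine neuron genes, 1 passed, Gch1, higher in VTA (-1.34, adjusted p = 0.00163), with sums of 27807 to 34760 and 23880 to 34425. The part of these cells, or of the difference in median signal, in the positive differences of the respiratory chain genes was not tested.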

How the data were processed

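The authors deposited linear intensities, 1 for each probe set on each array. Every array had the same trimmed mean, so by their values the deposited intensities had been scaled before deposit. The array software, background correction and RNA amplification behind them are not stated, that is, not given in the sources used here, and no detection calls were used. The table held 8799 probe sets, and 59 control probe sets were left out. The platform annotation gave 7006 probe sets 1 symbol, 308 several and 1426 none. Only probe sets with 1 symbol were named, and 7 probe sets with several symbols, of which 1 follows the rule, were not used. Gene IDs of all 56 genes were found in the RefSeq table of GRCr8, which changed 0 symbols.

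Values were turned into log2(intensity + 16). Probe sets among the dimmest 40% by mean log2 value (below a signal of about 26.3) were left out. The other 5244 were fitted over all 15 arrays with lmFit and eBayes of limma 3.58.1 under R 4.3.3, as SNc minus VTA and two-sided. P-values were adjusted by Benjamini-Hochberg over all of them, with a threshold of 0.05. The offset makes differences of dim genes smaller than their true size. Each gene was read by its brightest probe set over all arrays, which gave 3221 genes. Precision is limited by the number of arrays. Replicate numbers were not taken as pairs. The procedure was tested on simulated data.

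Genes named in the text were those with an unadjusted p under 0.05, the 3 with the largest difference and the brightest probe set in each complex, isoform pairs, genes whose probe sets differed by over 0.5, and the 2 genes with the smallest p of each pathway list. Core and other complex I subunits, Ndufc2, Uqcrc2, Atp5f1c, Atp5pd, Atp5po, Atp5if1 and the genes outside the filter were named after their values were seen. So were Dlat, Pdhx, Gad2, Slc32a1 and the marker genes that passed. The genes and lists were chosen with earlier results of these data known. Alternatives were quantile normalization, centring on array medians, an offset of 1 or 64, a filter of 60% or none, the mean of all probe sets, a replicate block and leaving out each array.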

Additional observations from a re-analysis of the deposited data

Results flagged for a closer look

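Single arrays stood apart within their region in 6 of 56 groups of values checked with Dixon's 95% critical value, where chance gives about 1 in 20. Atp5f1a had a signal of 2602 on VTA 8, with the next VTA array at 2184. Ndufb8 had 3081 on VTA 5, with the next at 1955. Cox4i2 had 336 on VTA 4, with the next at 276. Ndufa4l2 had 203 on SNc 7, with the next SNc array at 129.8. Uqcr11 had 1503 on SNc 8, with the next at 1249. The median position of complex III was 0.000289 on VTA 5, with the next VTA array at -0.129.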

How the results depend on the processing

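Over 26 alternatives, the number of genes with a positive difference ran from 36 to 47 around 42, and the number past the threshold was 0 except for 1, Atp5pf, with median centring and with an offset of 64. Atp5pf then differed by 0.549 and 0.439. The number with an unadjusted p under 0.05 ran from 3 to 10 around 7, with 3 under quantile normalization, 10 with an offset of 64 and 10 with no filter, and from 3 (without VTA 3) to 8 on leaving out single arrays. Median centring moved the median of the 54 genes to 0.225 and of complex III to 0.338, and turned Ndufa4 to 0.0878. Centring on the genes of the 2 brightest bins of signal, chosen after seeing the data, moved them to 0.0591 and 0.173. These settings moved the median of all genes to 0.0571 and -0.109, and quantile normalization moved it to 0.0057. Without assembly factors, the inhibitor, the paralogue and the pseudogene, also chosen after seeing the data, complex II rested on Sdha alone, at 0.153. The mean of all probe sets turned Cox4i1 to -0.0562. Leaving out single arrays gave -0.056 to 0.0445 for Ndufa4, 0.0923 to 0.159 for the median of the 54 genes and 0.209 to 0.304 for complex III. The labels do not say that replicate numbers pair the arrays, so the arrays were not treated as pairs. Same-numbered arrays correlated positively in 7 of 7 pairs (0.0312 to 0.238), over 0.1 in 3. Of the arrays, 4 SNc and 2 VTA correlated best with their own number. They may therefore be linked, and how often this would arise by chance was not computed. The replicate block gave 0 genes past the threshold and 5 with an unadjusted p under 0.05, and turned Ndufa4 to 0.0166. Without VTA 5 and VTA 8, also added after seeing the data, 0 passed and 41 were positive. Dim genes, with signals near the offset, have the least certain sizes.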

Other observations

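After each region's mean was removed, genes of the same complex hardly moved together from array to array. The median Pearson correlation over all pairs of the 54 genes was 0.026 on 15 arrays, and 0.006 over pairs of the other 600 bright genes. It was 0.060 within complex I, 0.061 within complex IV, 0.119 within complex V and -0.241 over the 6 pairs of complex III. All pairs share the same 15 arrays and their scaling, so these values are descriptions.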
